A study of Sus scrofa with 23 samples.

Results

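The Notch pathway was examined in kidney cortex of newborn pigs through 10 genes: the receptors NOTCH1, NOTCH2 and NOTCH3, the ligands JAG1, JAG2, DLL1 and DLL4, the target genes HES1 and HEY1, and LFNG, an enzyme that modifies the receptors. The genes were chosen by symbol, and all 10 were found among the 26687 gene symbols of the annotation. All 10 also passed the expression filter that left 20921 genes for testing, and each had reads in every library. RNA-Seq libraries of ribosome-depleted total RNA came from 23 newborn pigs born to CFTR+/- matings and studied within hours of birth. The labels give 11 CFTR-/- pigs (CF), 6 CFTR+/- pigs (HET) and 6 CFTR+/+ pigs (WT), and WT and HET together form the 12 non-CF pigs of the study's comparison. The labels name no treatment and do not state the sex or litter of a pig. The paper describes isoflurane anaesthesia, saline infusion and surgery for its piglets. It does not say which of these 23 pigs underwent them.

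Notch signalling passes between neighbouring cells. A ligand on one cell, after tagging by a ubiquitin ligase such as MIB1, pulls on a receptor of the next cell. Proteases then release the receptor's intracellular part, which enters the nucleus, joins the DNA-binding protein RBPJ and switches on genes of the HES and HEY families. In the forming kidney this pathway, through NOTCH2 and JAG1 in particular, moves progenitors out of their undifferentiated state and favours proximal tubule and podocyte fates. NOTCH1, NOTCH4 and DLL4 are also active in endothelium, and NOTCH3 and HEYL in the mural cells of vessels.

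The labels were first checked with CFTR itself. CFTR had 60 to 178 counts in the libraries labelled WT, 442 to 699 in those labelled HET and 614 to 1040 in those labelled CF. This order goes against a loss of the transcript (CF over WT, log2 fold change 3.14, SE 0.188, edgeR adjusted p = 1.23e-10; HET over WT, 2.47, SE 0.194, adjusted p = 5.07e-08). Every direction given here is therefore one between libraries labelled CF, HET or WT.

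Library features that touch the results were as follows. Libraries held between 32901194 and 52952229 estimated counts. The 13 libraries of pigs 1 to 6 and 12 to 18 (6 CF, 3 HET, 4 WT) separated from the 10 libraries of pigs 7 to 11 and 19 to 23 (5 CF, 3 HET, 2 WT) on an axis of a multidimensional scaling plot. They are called lower-numbered and higher-numbered pigs, and comparisons are also given within each set. That axis was axis 2 of the plot, and axis 1 separated the libraries high in EIF1AY, a Y-linked gene, from those low in it. Libraries CF1, WT12 and HET20 had FOS counts of 17142, 6288 and 3180, against at most 286 in the other 20, so results are also given without these 3 libraries. Markers of proximal tubule (LRP2, 3517 to 8196 CPM, the read count scaled to library size), loop of Henle (SLC12A1), forming nephrons (LHX1), endothelium (PECAM1) and mural cells (PDGFRB) were present in every library, and the labelled tissue was thus matched by its markers. The early progenitor markers SIX2 and CITED1 were low, with medians of 0.684 and 0.739 CPM.

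Sequence upstream of the target genes was read because HES1, HEY1 and HEYL are the members of the pathway on which RBPJ acts most directly. The 7 bases GTGGGAA, the core of the motif that RBPJ binds, were searched on both strands in the 1000 bases before each annotated start in Sscrofa11.1. HES1 held 1 match, 326 bases before its start, at chr13:131135633-131135661 on the plus strand. HEY1 held 1 match on the opposite strand, 122 bases before its start, at chr4:56859507-56859535 on the plus strand. HEYL, a further target described with the other pathway genes, held 1 match on the opposite strand, 126 bases before its start, at chr6:95459706-95459734 on the minus strand. Capitals mark the match, which reads TTCCCAC where it lies on the opposite strand.
HES1: tgaaagttactGTGGGAAagaaagtttgg
HEY1: gcgccggcagtTTCCCACggcccgcggcg
HEYL: cgcccggggccTTCCCACggctcggccag
The windows of the other 8 members held no match. Among 20605 genes scanned in the same way, 21% held at least 1 match, so a match by itself does not set a gene apart. The annotated start of HES1 lies close to its first codon, because the gene model of 854 bases holds 843 coding bases.

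Levels per length were compared in TPM, the deposited length-scaled transcript abundance. JAG1 (median 46.5 TPM, range 37.1 to 54.6) and NOTCH2 (45.2, range 37.3 to 53.6) were the most abundant members, with medians above those of more than 92% of tested genes. JAG1 exceeded NOTCH2 in 14 of 23 libraries, so these 2 could not be ordered. HES1 followed with 34.7 TPM (25.2 to 50.1), below NOTCH2 in 19 of 23 libraries. NOTCH3 (13.4 TPM, 6.49 to 21.9) lay below HES1 and above NOTCH1 (9.16 TPM, 5.95 to 13.2) in all 23 libraries. DLL4 (5.87 TPM), LFNG (5.25 TPM) and DLL1 (5.01 TPM) were close together, each exceeding the next in 15 of 23 libraries. DLL1 exceeded HEY1 (2.47 TPM) in every library, and HEY1 exceeded JAG2 (1.86 TPM, 1.02 to 2.84) in 17 of 23. NOTCH2 was thus the most abundant receptor and JAG1 the most abundant ligand of those examined. TPM depends on the gene models: LFNG is annotated with transcripts of 6430 to 12403 bases of which the leading one has 1131 coding bases, and HES1 with almost no untranslated sequence.

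**Figure D1:**
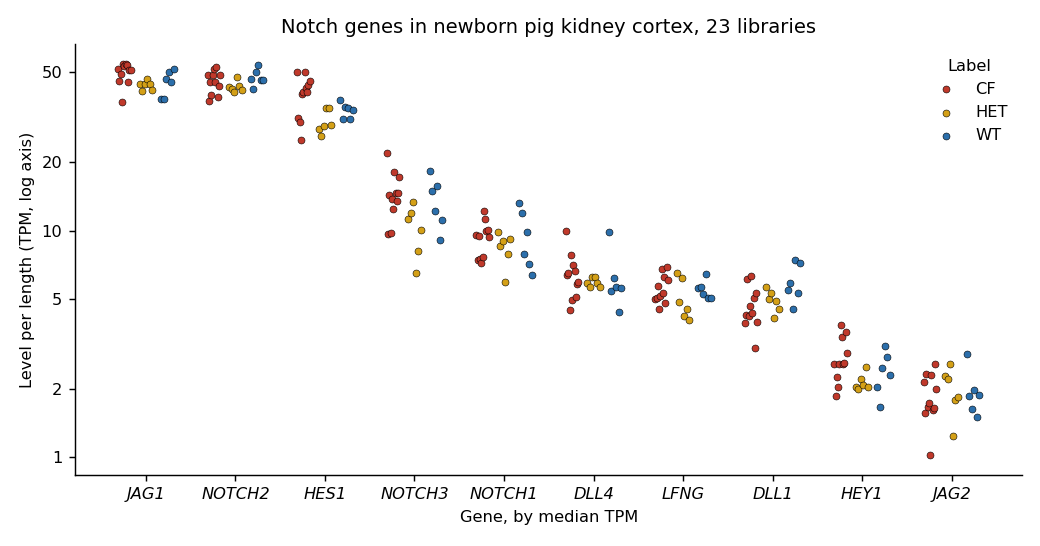
Level per length (TPM, log axis) of the 10 Notch genes in each of 23 libraries, coloured by genotype label and ordered by median. JAG1 and NOTCH2, at 46.5 and 45.2 TPM, overlap fully, and JAG2 is lowest at 1.86 TPM.

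The spread between libraries differed among members on the scale of normalised read counts. NOTCH2 varied least, with a coefficient of variation of 8.35% over the 23 libraries, followed by JAG1 (12.5%) and LFNG (13.5%). NOTCH3 (32.3%), DLL4 (28%), JAG2 (25.8%) and NOTCH1 (24.3%) varied most. HES1 was tight in the non-CF libraries (9.45%, n = 12) and wide in the libraries labelled CF (25.1%, n = 11). JAG1, HEY1 and NOTCH2 had the same arrangement, at 7.11%, 12.5% and 3.33% in non-CF against 12.9%, 20.9% and 11.6% in CF. LFNG (16.2% in non-CF, 9.51% in CF) and NOTCH1 (27.6% and 21.6%) had the reverse, and differences in spread were not tested. The NOTCH2 spread in CF includes CF1 at 743.3 CPM, beside 507.2 to 632.4 in the other CF libraries.

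The main comparison asked whether RNA levels differ between CF and non-CF pigs. No member passed edgeR's adjusted threshold of 0.05, which 0.349% of all tested genes did (73 of 20921). At an unadjusted p under 0.05, JAG1, HES1 and HEY1 had positive differences (3 of 10 members, 7.35% of all genes) and DLL1 a negative one (1 of 10, 6.36% of all genes), 4 of 10 members against 13.7% of all genes. Of the members, 8 had a log2 fold change above 0 (49.8% of all genes) and their median was 0.12, beside a median near 0 over all genes. In these bulk samples, a change in the number of cells that express a gene cannot be told apart from a change in RNA per cell.

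HES1, the transcriptional repressor that is the best known direct target of Notch, had the lowest p of the 10. Its level was 18.9, 27.4 and 40.7 CPM in the libraries labelled CF (lowest, median, highest), 18.6, 21.4 and 24.3 in HET, and 19.1, 21.6 and 25.6 in WT. The CF libraries spread from the bottom of the non-CF range to well above it, 9 of 11 lay above the non-CF median, and the HET and WT ranges overlapped almost fully. The means were 27.6 ± 6.92 (SD, n = 11) and 21.5 ± 2.03 (SD, n = 12) CPM. The log2 fold change was 0.36 (SE 0.105, 95% interval 0.14 to 0.57, edgeR p = 0.00214, adjusted p = 0.107). DESeq2, which called 2.33% of all genes, gave an adjusted p of 0.0430 for the same change. Adjusted p lay between 0.0430 and 0.641 over the alternatives, and an exact two-sided Mann-Whitney U test on counts scaled by median of ratios, the kind of test the study names, gave p = 0.0129 (adjusted p = 0.249). CF1, one of the 3 libraries high in FOS, had the highest HES1 level, and without those 3 libraries the log2 fold change was 0.34 (adjusted p = 0.149, 0.0192% of genes passing).

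HEY1, a second target repressor, showed the same arrangement at lower counts. It had 4.66, 6.10 and 8.67 CPM in the libraries labelled CF, 4.43, 5.05 and 5.95 in HET, and 4.04, 5.08 and 6.20 in WT. Of the CF libraries, 9 fell above the non-CF median, 5 of them above every non-CF library. The log2 fold change was 0.30 (SE 0.104, 95% interval 0.09 to 0.52, p = 0.00713, adjusted p = 0.169).

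JAG1, the main ligand of the forming nephron, had 221.9, 250.2 and 327.5 CPM in the libraries labelled CF, 226.1, 241.6 and 255.5 in HET, and 201.4, 222.8 and 253.3 in WT. The groups overlapped in their lower part, and 10 of 11 CF libraries lay above the non-CF median. The log2 fold change was 0.19 (SE 0.0639, 95% interval 0.06 to 0.33, p = 0.0053, adjusted p = 0.149).

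DLL1, a ligand of early nephron precursors, was the one member with a negative difference at an unadjusted p under 0.05. It had 11.4, 15.7 and 18.6 CPM in the libraries labelled CF, 12.8, 17 and 19.5 in HET, and 14.1, 19.3 and 22 in WT. The 3 medians lay in the order CF, HET, WT, with ranges that overlapped throughout, and 9 of 11 CF libraries lay below the non-CF median. The log2 fold change was -0.23 (SE 0.0926, 95% interval -0.42 to -0.03, p = 0.0224, adjusted p = 0.263).

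**Figure D2:**
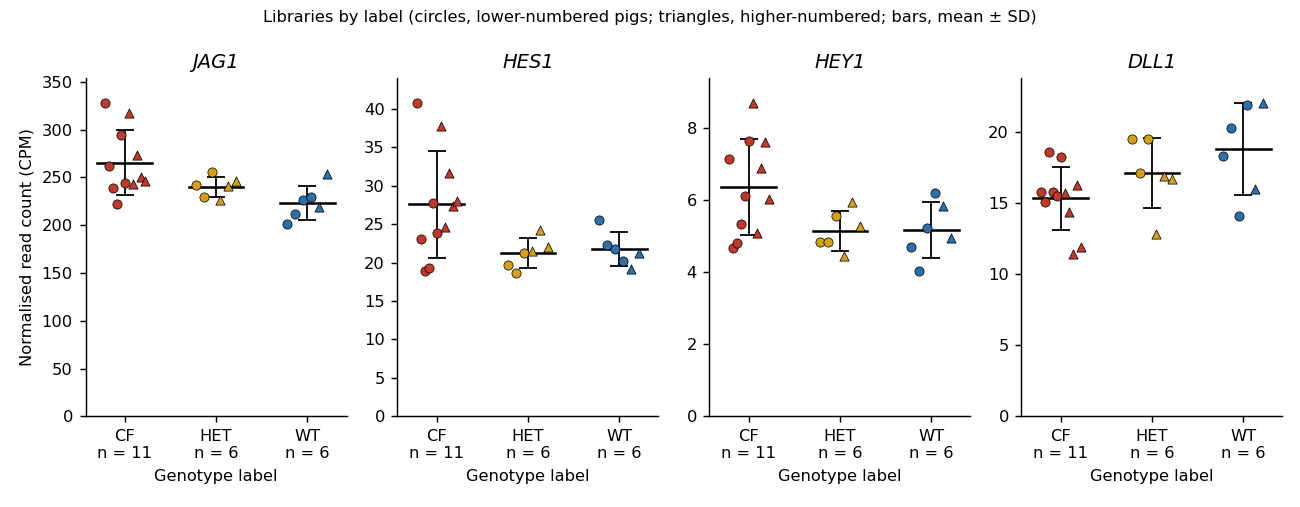
Normalised read count (CPM) of JAG1, HES1, HEY1 and DLL1 in each library by genotype label, circles for lower-numbered and triangles for higher-numbered pigs, with mean ± SD. Libraries labelled CF reach above the HET and WT libraries for HES1 (40.7 against 25.6 CPM) while their lowest values coincide.

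The receptors gave wider intervals or smaller differences. NOTCH3 had 79.7, 102.8 and 200.0 CPM in the libraries labelled CF, 45.4, 87.1 and 110.9 in HET, and 63.0, 95 and 139.6 in WT, a log2 fold change of 0.33 (SE 0.164, 95% interval -0.01 to 0.67, adjusted p = 0.381). The highest value was that of CF1, and without CF1 the log2 fold change was 0.21. NOTCH2 lay between 507.2 and 743.3 CPM in CF and between 533.1 and 591.8 in non-CF libraries. Its log2 fold change of 0.03 (SE 0.0563, 95% interval -0.08 to 0.15, adjusted p = 0.859) was the smallest and most tightly bounded of the 10, and it was -0.01 without CF1, the library with the highest value. NOTCH1 differed by 0.08 (SE 0.138, 95% interval -0.21 to 0.36, adjusted p = 0.871), with 0.01 without CF7 and 0.14 without WT12.

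Of the remaining ligands, DLL4, the endothelial ligand, differed by 0.12 (SE 0.144, 95% interval -0.17 to 0.42, adjusted p = 0.766), a value that fell to 0.00 without CF1, where DLL4 stood at 37.8 CPM against a CF median of 18.4. JAG2 differed by -0.06 (SE 0.156, 95% interval -0.38 to 0.26, adjusted p = 0.921). LFNG, the fringe enzyme that lengthens sugars on the receptors and shifts them between ligands, differed by 0.11 (SE 0.0784, 95% interval -0.05 to 0.28, adjusted p = 0.564). For these members the data bound the difference and do not show that the groups were alike.

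The genotype labels were also set against each other in pairs, in 1 fit that shares the CF libraries and the control libraries between comparisons. For CF against WT, where 0.349% of genes passed, no member passed and 4 had an unadjusted p under 0.05 (14.1% of genes). JAG1 differed by 0.25 (SE 0.0777, adjusted p = 0.132), DLL1 by -0.29 (SE 0.111, adjusted p = 0.224), HES1 by 0.34 (SE 0.132, adjusted p = 0.226) and HEY1 by 0.30 (SE 0.130, adjusted p = 0.286). Without the 3 libraries high in FOS, HEY1 differed by 0.27 (p = 0.0775), and with the level of EIF1AY, a Y-linked gene, as a term by 0.27 (p = 0.0571), so that 3 members were left with an unadjusted p under 0.05. Under DESeq2, JAG1 alone passed, with an adjusted p of 0.0460, where 2.75% of all genes did. For CF against HET no gene passed under edgeR, while 2069 genes (9.89%) and 3 members had an unadjusted p under 0.05 and DESeq2 called 65 genes (0.311%) and no member. HES1 differed there by 0.37 (SE 0.132, adjusted p = 0.363), HEY1 by 0.30 (SE 0.130, adjusted p = 0.446) and NOTCH3 by 0.47 (SE 0.201, adjusted p = 0.446). Without the 3 libraries high in FOS, NOTCH3 differed by 0.29 (p = 0.124) and no longer had an unadjusted p under 0.05. For HET against WT, where CFTR was the 1 gene that passed (0.00478%), all 10 members had adjusted p values of at least 0.783 and none had an unadjusted p under 0.05, which 7.99% of genes had. The log2 fold changes of HET over WT ran from -0.27 (NOTCH3) to 0.16 (JAG2). EIF1AY was high in 6 of 11 CF, 5 of 6 HET and 2 of 6 WT libraries, and among higher-numbered pigs in all 3 HET and neither WT library. With its level as a term, HET over WT was -0.39 for NOTCH3 (adjusted p = 0.798) and -0.19 for HES1 (adjusted p = 0.857), which had -0.03 without the term.

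The comparison of CF with non-CF was repeated within each set of pig numbers, and no member passed the test of a difference between the sets given further on. HES1, HEY1, JAG1 and DLL1 differed in the same direction in both sets. These members had been singled out by their unadjusted p in all pigs together, the same libraries that the sets divide. A shared direction was therefore likely from the choice itself and is not a separate test of them. HES1 differed by 0.26 (SE 0.149) in lower-numbered and 0.47 (SE 0.116) in higher-numbered pigs, HEY1 by 0.23 (SE 0.138) and 0.38 (SE 0.152), JAG1 by 0.22 (SE 0.0907) and 0.17 (SE 0.0889), and DLL1 by -0.17 (SE 0.103) and -0.27 (SE 0.144). The HES1 value of the lower-numbered pigs includes CF1 at 40.7 CPM, beside 18.9 to 27.8 in CF2 to CF6. NOTCH1, NOTCH3 and LFNG had log2 fold changes near or below 0 in lower-numbered pigs and above 0.3 in higher-numbered pigs. JAG2 had opposite signs, -0.28 (SE 0.206) and 0.27 (SE 0.190), and NOTCH2 (0.05 and 0.03) and DLL4 (0.13 and 0.14) had similar values in both. The lower-numbered set includes CF1, with 743.3 CPM of NOTCH2 and 37.8 of DLL4. CF2 to CF6 had 513.0 to 630.1 and 13.5 to 25.1 CPM, and this set was not fitted without CF1. For NOTCH1, NOTCH3 and LFNG in lower-numbered pigs the log2 fold changes were -0.25 (SE 0.145), 0.04 (SE 0.193) and -0.06 (SE 0.0970), and no gene of 21038 tested passed the adjusted threshold there, while 9.31% had an unadjusted p under 0.05.

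**Figure D3:**
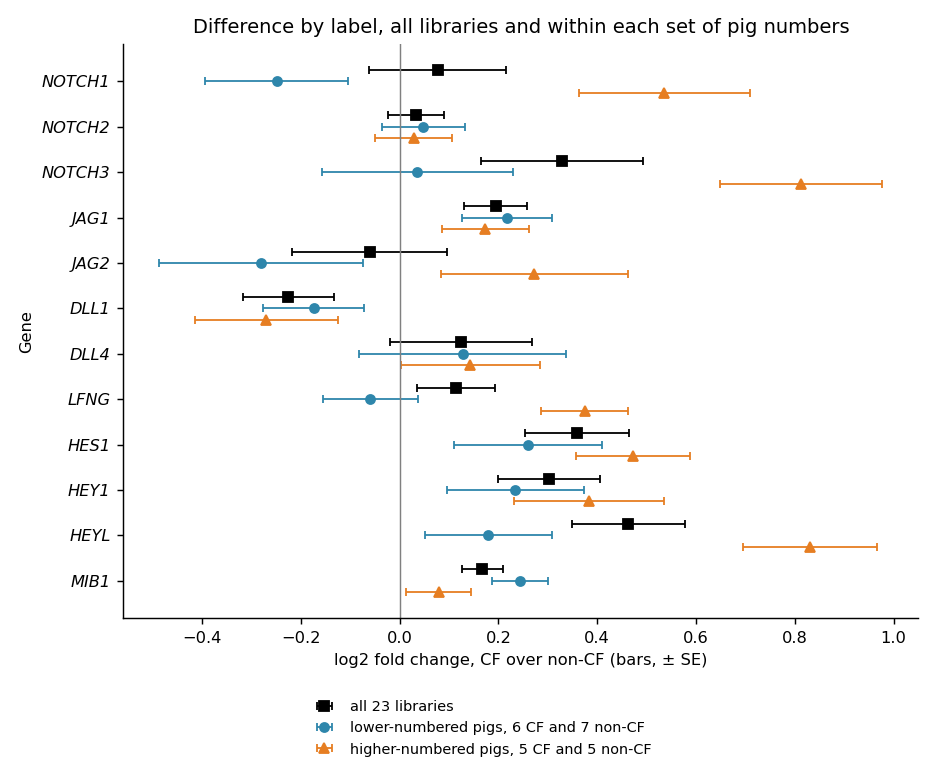
Log2 fold change of libraries labelled CF over non-CF (± SE) for the 10 members, HEYL and MIB1 in all 23 libraries, in the 13 lower-numbered and in the 10 higher-numbered pigs. NOTCH3 stands at 0.81 in higher-numbered and 0.04 in lower-numbered pigs, and JAG1 at 0.17 and 0.22.

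In the higher-numbered pigs NOTCH3 had 152.2, 95.4, 118.4, 102.8 and 119.3 CPM in CF7 to CF11, 45.4, 63.5 and 86.3 in HET19 to HET21, and 63.0 and 78.2 in WT22 and WT23. Every CF library lay above every non-CF library. The log2 fold change was 0.81 (SE 0.164, edgeR adjusted p = 0.0222), where 2.27% of genes passed. LFNG had 52.6, 52.6, 52.1, 64.0 and 56.7 CPM in the same CF pigs, 38.4, 41.2 and 40.8 in the HET and 46.2 and 48.9 in the WT pigs, again without overlap and with the HET libraries lowest. Its log2 fold change was 0.37 (SE 0.0876, adjusted p = 0.0434). NOTCH1 had 120.8, 85.9, 102.6, 83.0 and 76.3 CPM in CF, 49.0, 72.6 and 91.8 in HET and 58.2 and 53.1 in WT, with HET21 inside the CF range. Its log2 fold change was 0.54 (SE 0.172, adjusted p = 0.122), and 0.41 (adjusted p = 0.0327) with the GC slope, a measure of base composition described with the pairs, as a term, where 3.87% of genes passed. For CF against HET in these pigs, where 2.56% of genes passed, NOTCH3 and LFNG passed as well, while for CF against WT, with 2 WT libraries, they did not (NOTCH3 0.75, adjusted p = 0.200, and LFNG 0.24, adjusted p = 0.390).

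In the higher-numbered pigs 3 of 10 members (NOTCH3, HES1 and LFNG) had groups that did not overlap, where 4.64% of all genes did. In the lower-numbered pigs 0 of 10 members had such groups (0.631% of all genes), and in all pigs together 0 of 10 (0.00478%). The difference in the CF effect between the 2 sets was tested for each gene as an interaction, which called 4 of 20921 genes (0.0191%) and no member. It was 0.78 for NOTCH1 (SE 0.239, p = 0.00336, adjusted p = 0.235), 0.77 for NOTCH3 (SE 0.284, p = 0.0126, adjusted p = 0.332) and 0.43 for LFNG (SE 0.131, p = 0.00321, adjusted p = 0.230), so 3 members had an unadjusted p under 0.05, where 10.1% of genes did. For HES1 the same term was 0.20 (SE 0.209, adjusted p = 0.793). Without the 3 libraries high in FOS, the term was 0.94 for NOTCH3 (adjusted p = 0.0960), 0.86 for NOTCH1 (adjusted p = 0.160) and 0.39 for HES1 (p = 0.0254, adjusted p = 0.410). With the GC slope as a further term it was 0.49 for NOTCH3 (adjusted p = 0.305), 0.47 for NOTCH1 (adjusted p = 0.186) and 0.05 for HES1 (adjusted p = 0.926).

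**Figure D4:**
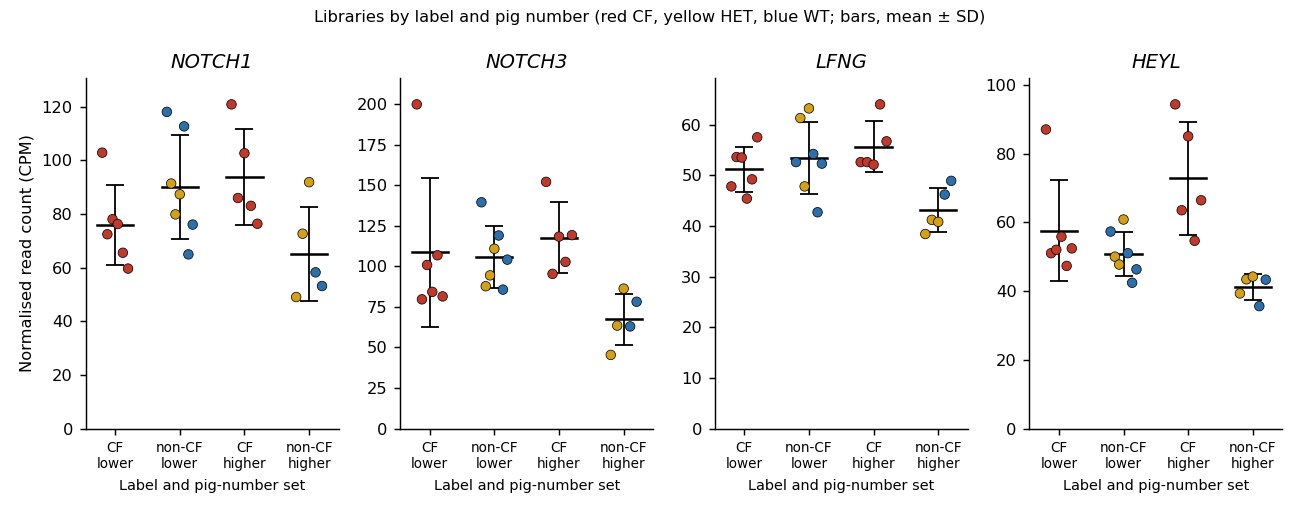
Normalised read count (CPM) of NOTCH1, NOTCH3, LFNG and HEYL in CF and non-CF libraries of lower-numbered and higher-numbered pigs, with mean ± SD and colours for the labels. In higher-numbered pigs the lowest NOTCH3 value in CF, 95.4, lies above the highest non-CF value, 86.3.

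Markers of other cell types were set beside these values. In the higher-numbered pigs the 7 mural and smooth muscle markers, the cells in which NOTCH3 is best known, summed to 560.2 to 736.7 CPM in CF and 503.0 to 655.2 in non-CF libraries. Of the 7, 6 had higher values in CF, 3 at an unadjusted p under 0.05 and none at the adjusted threshold, where 52.9% of all genes had a log2 fold change above 0 and 17.4% an unadjusted p under 0.05. The 10 markers of progenitors and forming nephrons summed to 255.4 to 320.5 CPM in CF and 211.1 to 247.1 in non-CF, 9 of 10 higher and none past the threshold. The 6 loop of Henle and distal tubule markers summed to 1332.8 to 1771.5 in CF and 1803.1 to 2399.8 in non-CF, and 3 of them, SLC12A1, SLC12A3 and CALB1, fell at the adjusted threshold. The 9 endothelial markers summed to 530.7 to 689.4 and 664.5 to 731.7. Of these, 4 had higher and 5 lower values in CF, with KDR alone, lower, past the adjusted threshold. The 6 collecting duct markers summed to 172.3 to 225.1 and 176.1 to 227.1, and 3 of them, AQP2, AQP3 and HSD11B2, passed, 1 higher and 2 lower in CF. Of the 5 immune markers tested, 4 had lower values in CF, 3 at an unadjusted p under 0.05. Higher values in CF were held by 5 of 8 proximal tubule, 3 of 6 podocyte and 3 of 7 stromal markers. Their median log2 fold changes were 0.047, 0.03 and -0.011, and none of them passed. Every marker of the first 5 lists had a value above 0 in every library, and their part in the Notch values was not tested. Over all 23 libraries, no marker of these lists passed, and the sums overlapped between the labels. There, 5 of 6 loop and distal tubule markers had lower values in CF, 3 at an unadjusted p under 0.05. Of the immediate early genes (the list of FOS), 10 of 10 had higher values, with a median log2 fold change of 0.61 and 3 at an unadjusted p under 0.05. That list summed to 1809.2 CPM in CF1, 722.1 in WT12 and 268.0 in HET20, and to at most 175.2 in the other 20 libraries. In the higher-numbered pigs, a set that does not hold CF1, 4 of the list had higher and 6 lower values (median -0.078).

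Between the 2 sets themselves, where 10.3% of genes passed the threshold, no member did. The largest of the differences by p was DLL1, 0.19 lower on the log2 scale in higher-numbered pigs (log2 fold change -0.19, SE 0.0867, p = 0.0374, adjusted p = 0.156), where 27% of genes had an unadjusted p under 0.05.

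A pathway list of 50 further genes was examined beside the members, and 49 of them passed the expression filter. None passed the adjusted threshold for CF against non-CF, 30 had a log2 fold change above 0 (49.8% of all genes), and the list's median was 0.04. At an unadjusted p under 0.05 there were 4 positive and 1 negative difference, 5 of 49 beside 13.7% of all genes. With the GC slope as a term there were 12 of 49 (3364 of 20921 genes), and under DESeq2 7 of 49 (2990 of 20921 genes). HEYL, a target gene of the same family as HEY1 that is typical of mural cells, had the lowest p. It had 47.3, 55.8 and 94.3 CPM in the libraries labelled CF, 39.3, 45.9 and 60.8 in HET, and 35.6, 44.8 and 57.3 in WT, and all 11 CF libraries lay above the non-CF median. Its log2 fold change was 0.46 (SE 0.115, 95% interval 0.23 to 0.70, adjusted p = 0.0646). It was 0.18 (SE 0.129) in lower-numbered pigs, where CF1 had 87.0 CPM and CF2 to CF6 had 47.3 to 55.8. In higher-numbered pigs it was 0.83 (SE 0.136, adjusted p = 0.00913), where 2.27% of all genes passed. The interaction was 0.64 (adjusted p = 0.242). It was 0.42 with the GC slope as a term (adjusted p = 0.272) and 0.80 without the 3 libraries high in FOS (adjusted p = 0.0903). The adjusted p of HEYL for CF against non-CF ran from 0.00913 to 0.727 over the alternatives.

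MIB1, the ubiquitin ligase that makes ligands able to signal, showed a small difference with little spread. It had 235.4, 255.2 and 271.8 CPM in the libraries labelled CF, 218.7, 228.7 and 238.9 in HET, and 208.1, 221.8 and 242.7 in WT. All 11 CF libraries exceeded the non-CF median. The log2 fold change was 0.17 (SE 0.0415, 95% interval 0.08 to 0.25, adjusted p = 0.0653). The exact Mann-Whitney U test, which called 0.22% of genes, gave p = 1.78e-05 (adjusted p = 0.0218), and the difference was 0.24 in lower-numbered (SE 0.0576) and 0.08 (SE 0.0658) in higher-numbered pigs.

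The other 3 pathway genes with an unadjusted p under 0.05 were RBPJ, the DNA-binding partner of the receptors (0.13, SE 0.0618, adjusted p = 0.346), FURIN, the protease that cuts receptors during their maturation (0.24, SE 0.105, adjusted p = 0.297), and HES2 (-0.22, SE 0.0856, adjusted p = 0.240). By role, log2 fold changes lay above 0 for 1 of 3 ligands, 2 of 4 ligand ubiquitin ligases, 6 of 9 proteases, 9 of 12 nuclear factors, 6 of 8 negative regulators, 5 of 8 targets and 0 of 4 receptor sugar enzymes, a role that LFNG (0.11) shares, and differences between roles were not tested. The fourth receptor, NOTCH4, differed by 0.21 (SE 0.110, adjusted p = 0.411).

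At the transcript level, 23 of the 26 annotated transcripts of the members were tested. None passed the adjusted threshold, which 0.00405% of 49377 transcripts did, the smallest adjusted p was 0.308 (HES1) and 3 had an unadjusted p under 0.05 (7.61% of transcripts). NOTCH1, NOTCH3, DLL4 and HES1 have 1 annotated transcript each. One transcript held nearly all estimated counts of NOTCH2 (median share 98.4%) and JAG1 (93.6%), and most of those of HEY1 (88.1%) and DLL1 (85.3%). LFNG and JAG2 were split among several models, with leading shares of 62.6% (31.1 to 81.2) and 53.4% (26.6 to 69.6) that overlapped between CF and non-CF libraries.

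The members did not vary as 1 block across libraries. Of the 45 pairs, 38 had a positive Pearson r of log2 CPM over the 23 libraries, and 7 passed a permutation test (two-sided, 100000 resamples, Benjamini-Hochberg over 45 pairs) for both r and Spearman's rho. The strongest was NOTCH1 with NOTCH3 (r = 0.79, p = 2e-05, adjusted p = 0.0009; rho = 0.79, p = 2e-05, adjusted p = 0.00045), at 0.69 without the 2 libraries farthest from the NOTCH1 median, 0.70 in lower-numbered and 0.85 in higher-numbered pigs. JAG1 with HES1 followed (r = 0.76, p = 0.00012, adjusted p = 0.0018; rho = 0.58, p = 0.00444, adjusted p = 0.040), at 0.48 without 2 libraries, 0.69 and 0.89 within the sets. This pair had r = 0.88 in the 11 libraries labelled CF and -0.26 in the 12 non-CF libraries, and the difference was not tested. HES1 with HEY1 (r = 0.67, p = 0.00045, adjusted p = 0.00506; rho = 0.51, p = 0.0135, adjusted p = 0.0675) did not pass for rho and had 0.72 in CF and -0.14 in non-CF libraries. NOTCH1 with JAG2 (r = 0.75, p = 4e-05, adjusted p = 0.0009; rho = 0.80, p = 2e-05, adjusted p = 0.00045) had 0.67 without 2 libraries and 0.78 and 0.76 within the sets. The other 4 pairs were NOTCH3 with HES1 (r = 0.66), NOTCH3 with JAG2 (r = 0.65), JAG1 with HEY1 (r = 0.64) and JAG2 with DLL4 (r = 0.62). In CF and non-CF libraries they had 0.86 and 0.21, 0.68 and 0.80, 0.535 and 0.38, and 0.63 and 0.65, in that order. LFNG, DLL1 and NOTCH2 were in none of the 7 pairs, and DLL1 with HES1 had the most negative r, -0.41 (p = 0.0518, adjusted p = 0.117; rho = -0.48, p = 0.0224, adjusted p = 0.101).

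Part of this structure moved with base composition. For each library, the slope of the log2 deviation of all genes on the GC content of their transcripts was taken (the GC slope). NOTCH1 (66.16% GC) and JAG2 (66.63% GC) are rich in GC beside a median of 50.32% for all tested genes, as are LFNG (63.43%), HES1 (63%) and NOTCH3 (62.88%). The GC slope correlated with NOTCH1 (r = 0.84, rho = 0.85) and JAG2 (r = 0.82, rho = 0.84; p = 1e-05 for all 4, the smallest the permutations can give, adjusted p = 5e-05 over 10 members), with r without 2 libraries of 0.83 and 0.77. It was 0.89 and 0.80 in lower-numbered and 0.81 and 0.86 in higher-numbered pigs. NOTCH3 (r = 0.66, p = 0.00053, adjusted p = 0.00177; rho = 0.61, p = 0.00231, adjusted p = 0.0077) and DLL4 (r = 0.56, p = 0.00497, adjusted p = 0.0124; rho = 0.56, p = 0.00643, adjusted p = 0.0161) followed, at 0.60 and 0.35 without 2 libraries and between 0.52 and 0.68 within the sets. The other 6 members did not pass (adjusted p of at least 0.14), HES1 (r = 0.33) and LFNG (r = 0.20) among them. With each gene's straight line on the GC slope removed, NOTCH1 with JAG2 fell from 0.75 to 0.19, while JAG1 with HES1 stood at 0.74, HES1 with HEY1 at 0.70 and NOTCH1 with NOTCH3 at 0.56. NOTCH3 with JAG2 then stood at 0.25, JAG2 with DLL4 at 0.33, NOTCH3 with HES1 at 0.62 and JAG1 with HEY1 at 0.66. With the GC slope as a term in the comparison of CF with non-CF, HES1 had a log2 fold change of 0.37 (adjusted p = 0.0461, 1.59% of genes passing) and NOTCH3 0.39 (adjusted p = 0.0642). The GC slope itself averaged -0.0088 ± 0.0831 (SD, n = 11) in CF and 0.0081 ± 0.0871 (SD, n = 12) in non-CF libraries per 10 points of GC. Within the sets the order of the means turned, with -0.0209 in CF and 0.0400 in non-CF libraries of lower-numbered pigs and 0.0056 and -0.0365 in those of higher-numbered pigs, the same order as the NOTCH1 means in each set.

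**Figure D5:**
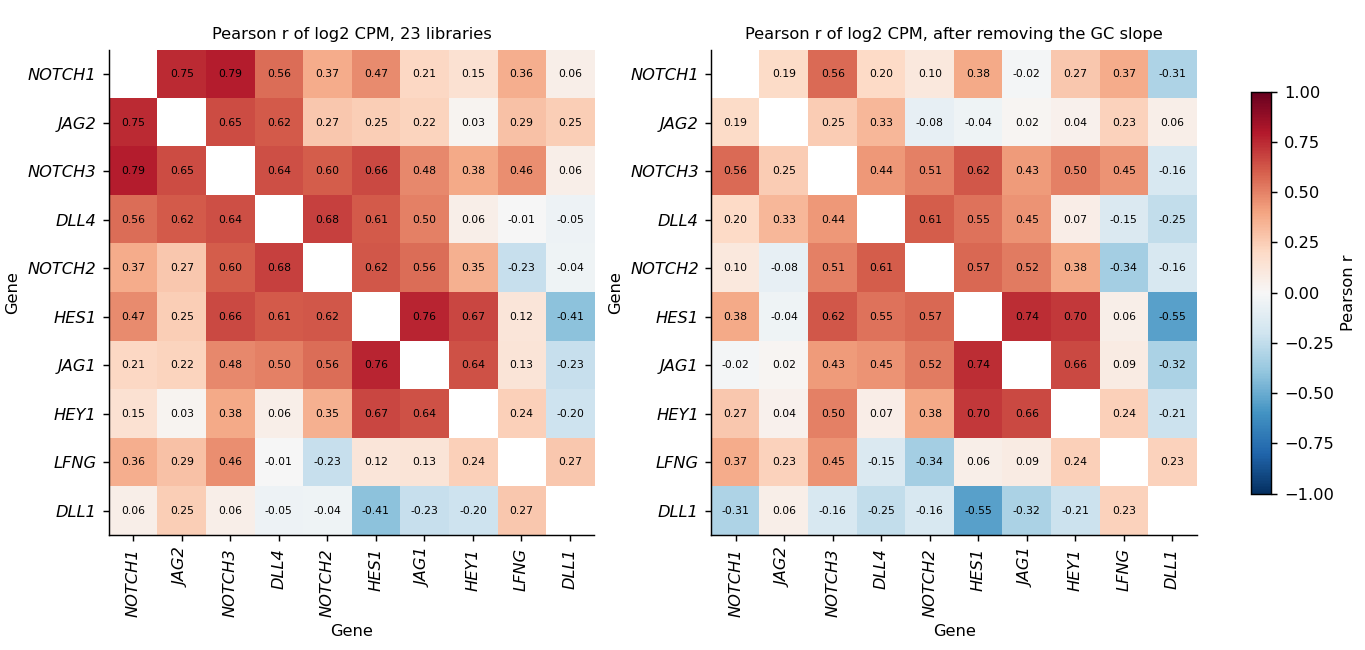
Pearson r of log2 CPM between the 10 members over 23 libraries, as measured (left) and after removal of each gene's straight line on the GC slope (right). The block of NOTCH1, JAG2 and NOTCH3 (0.65 to 0.79) is weaker on the right, and the block of HES1, JAG1 and HEY1 (0.64 to 0.76) is of similar strength in both, while in the 12 non-CF libraries alone its 3 values are -0.26, -0.14 and 0.38.

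Among all 20921 genes, those most like each member in log2 CPM over the 23 libraries were in each case not other members. They were ZMYM2 (r = 0.91) and MEX3C (0.86) for HES1, FOXO1 (0.90) and TMEM248 (0.88) for JAG1, DAO (0.75) and SMAD7 (0.75) for HEY1, and NHS (0.78) and UVSSA (0.76) for DLL1. For the receptors they were TMEM94 (0.91) and NFIX (0.90) for NOTCH1, GLG1 (0.86) and YBX3 (0.86) for NOTCH2, and NFIX (0.94) and LTBP3 (0.94) for NOTCH3. NELFCD (0.89) and FAAP100 (0.88) were most like JAG2, PHF13 (0.89) and PHF8 (0.88) most like DLL4, and FOXA3 (0.85) and LOC106506652 (0.80) most like LFNG. The closest fellow member reached 0.79 for NOTCH1 and NOTCH3 and 0.27 for DLL1, the member least like the rest. These values are a description over libraries that share depth and base composition effects.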

How the data were processed

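RNA of kidney cortex was sequenced by the authors as stranded, ribosome-depleted libraries, and the labels name kallisto and Sscrofa11.1. The authors deposited estimated counts per transcript, without normalization, and TPM values, which are the same estimates per effective length scaled to a constant sum. The most abundant transcript held 42.1% to 53.2% of all TPM in a library, so TPM was used only to order genes. The estimated counts of 77689 transcripts were summed per gene symbol and rounded, since 64.0% were not whole. A count of 0 would allow up to 3 counts (0.0567 to 0.0912 CPM by library, counting error only).

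CPM values were scaled by TMM. Main tests were edgeR 4.0.16 quasi-likelihood tests on R 4.3.3 after the filterByExpr filter, with Benjamini-Hochberg adjustment over all tested genes and a threshold of 0.05. CF was compared with non-CF, and the 3 labels in pairs in a fit of all 23 libraries. Log2 CPM used a prior count of 2. Alternatives were DESeq2 1.42.0, limma-voom (limma 3.58.1), other size factors and filters, the set of pig numbers as a term or each set alone, the exact Mann-Whitney U test (scipy 1.17.1) on counts scaled by median of ratios, and each library left out in turn. Chosen after seeing the data were the fits without 3 libraries, with the GC slope and with EIF1AY as terms. The edgeR, DESeq2 and limma-voom fits of genes and the Mann-Whitney U test were tested on simulated data, but not the transcript fit or the fits with EIF1AY, the GC slope or left-out libraries.

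Members, gene lists and tests were chosen with earlier results of these data known. Named genes are the 10 members, CFTR, the 5 other pathway genes with the smallest p, the 2 genes most like each member, and up to 3 markers per list, and NOTCH4 and other names outside this rule were chosen after their values were seen. NOTCH1 and JAG2 lie on unplaced scaffolds and get no coordinates. Each library comes from another pig, and p-values measure the spread between these pigs. Raw reads were not analysed here.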

Additional observations from a re-analysis of the deposited data

Results flagged for a closer look

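By Dixon's test on log2 CPM, 2 values stood apart from their group, both in library HET19. NOTCH1 was 49.0 CPM there against 72.6 to 91.8 in the other 5 libraries labelled HET, a gap of 0.628 of the group's range, and DLL1 was 12.8 CPM against 16.7 to 19.5, a gap of 0.631, where 0.625 is the limit for 6 libraries. On the CPM scale the same gaps were 0.553 and 0.581 of the range, under that limit, so both flags rest on the log scale. On the CPM scale 1 other value passed it, DLL4 in WT12 (31.0 CPM against 12.7 to 18 in the other WT libraries). With 20 groups examined (the 10 members in the libraries labelled HET and WT), chance flags about 1 in 20. HET19 also had the lowest NOTCH3 and LFNG values of all 23 libraries, 45.4 and 38.4 CPM, and its GC slope of -0.1454 was next to the lowest of the 23 (-0.1494, CF6). The part of the GC slope in these values was not tested.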

How the results depend on the processing

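No paired analysis was possible because the pig numbers in the labels are unique and the genotypes share none. Without each library in turn, 0 members were called in each comparison (lowest 0, highest 0), and 0 to 1 of the other pathway genes, HEYL being called without CF4 or HET15, fits that called 203 and 195 of all genes against 73 with all libraries. For CF against non-CF, DESeq2 called 1 member (HES1) and 2 other pathway genes (HEYL, MIB1), the GC slope as a term 1 (HES1) and 3 (FURIN, HEYL, MIB1), higher-numbered pigs alone 2 (NOTCH3, LFNG) and 1 (HEYL), and these pigs with the GC slope 3 (NOTCH1, NOTCH3, LFNG) and 1 (HEYL). Over all genes these settings called 2.33%, 1.59%, 2.27% and 3.87%, in that order. A filter of 1 CPM in 6 libraries, which called 150 of 18604 genes, called 2 other pathway genes (HEYL, MIB1) and the Mann-Whitney U test 1 (MIB1, 0.22% of all genes). DESeq2 called 1 member for CF against WT (JAG1, 2.75% of all genes), and higher-numbered pigs alone gave 2 for CF against HET (NOTCH3, LFNG, 2.56% of all genes). Of the 7 pairs of members, 3 passed without the 3 libraries high in FOS and 4 with the GC slope removed. Directions turned for NOTCH1 (-0.25) and LFNG (-0.059) in lower-numbered pigs, for NOTCH3 in CF against WT there (-0.048), for NOTCH2 without CF1 (-0.008, leave-one-out range -0.008 to 0.05) or without the 3 libraries (-0.001), and for JAG2 in higher-numbered pigs (0.27, or 0.14 with the GC slope), without CF6 (0.006, leave-one-out range -0.117 to 0.006) and with the GC slope (0.002). Among uncalled members, directions also turned in CF against WT for NOTCH1 (-0.30) and JAG2 (-0.15) in lower-numbered pigs and for JAG2 (-0.03) and NOTCH2 (-0.01) with EIF1AY as a term, and in CF against HET for NOTCH1 (-0.18) and LFNG (-0.16) in lower-numbered pigs, for JAG2 (0.23), DLL4 (-0.0046) and NOTCH2 (-0.0079) in higher-numbered pigs and for DLL4 (-0.04) and NOTCH2 (-0.0087) without the 3 libraries. The causes were not tested. CFTR kept its call in all 35 alternatives of both comparisons, and leaving out 1 library gave 3.01 to 3.33 for CF against WT and 2.35 to 2.67 for HET against WT. JAG1, HEY1 and DLL1 kept their direction and stayed short of the threshold in all 36 alternatives for CF against non-CF. Over all genes, 0 to 808 were called for CF against non-CF, so the adjusted p of a member rests on the setting as well as on its own spread. JAG2 and HEY1 had the fewest counts (132 and 180 in their lowest libraries), and the largest SEs for CF against non-CF were those of NOTCH3 (0.164) and JAG2 (0.156).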

Other observations

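Between the 2 sets of pig numbers, 4 of the 49 further pathway genes passed edgeR's adjusted threshold, a share slightly below the 10.3% of all genes. PSEN2, one of the catalytic subunits of the protease that releases the receptor's intracellular part, was higher in higher-numbered pigs (log2 fold change 0.43, SE 0.0901, adjusted p = 0.00555, and between 0.000427 and 0.0205 over the alternatives). POGLUT1, which adds glucose to receptors, was lower (-0.24, SE 0.0702, adjusted p = 0.0296, alternatives 0.0132 to 0.0610, lost without CF9 or HET19). NOTCH4, the endothelial receptor (-0.30, SE 0.0956, adjusted p = 0.0427), and EP300, a coactivator of the receptor complex (-0.23, SE 0.0753, adjusted p = 0.0498), were also lower. Both lost the call without the 3 libraries high in FOS, with adjusted p = 0.153 and 0.135, and when single libraries were left out, in 14 and 16 of 23 fits (adjusted p of up to 0.0876 and 0.0978). In the same comparison 6 of 9 endothelial markers were lower, CDH5 past the threshold, and the part of such markers in the NOTCH4 value was not tested.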
